A study of Mus musculus with 4 samples.

Results

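The levels of 10 genes that respond to low oxygen or to glucose were followed across the cell types of the injured mouse small intestine: Txnip, Arrdc4, Ndrg1, Ddit4, Vegfa, Slc2a1, Adm, Bnip3, Pdk4 and Hif1a. They were taken by symbol from the 32286 features counted in every library, and all 10 were found. Txnip and Ndrg1 were selected on their measured levels, lower in endothelial and glial cells of EC-Foxc-DKO mice than of controls, so for these genes that contrast in those cells is a description here and was not tested. The data are single-cell transcriptomes of the distal jejunum of 4 male mice, each 1 library, taken 18.5 h after small intestinal ischemia and reperfusion (I/R), in which the artery that feeds the small bowel is clamped and then released. Adult mice were used, and I/R followed tamoxifen by several days. The 2 control mice carried loxP-flanked alleles of the transcription factor genes Foxc1 and Foxc2 (Foxc1fl/fl;Foxc2fl/fl), and the 2 EC-Foxc-DKO mice carried the same alleles and Cdh5-CreERT2, a Cre recombinase driven by an endothelial promoter and switched on by tamoxifen. All mice had I/R and no uninjured sample was analysed here, so a level cannot be set against the resting gut.

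Hypoxia-inducible factor (HIF) is a pair of proteins whose alpha subunit is destroyed while oxygen is present. When oxygen falls, the alpha subunit persists, pairs with Arnt and turns on genes that hold a short core sequence. Its form ACGTG was searched for here, and other forms were not. Among the genes turned on are those for glycolysis, for new vessels and for the removal of mitochondria. Txnip and its relative Arrdc4 are alpha-arrestins that restrain glucose uptake, and both are switched on by high glucose through the Mondo and ChREBP factors with their partner Mlx, which bind a pair of E-box-like sites called the carbohydrate response element. In the small intestine oxygen falls from the base to the tip of the villus, the absorptive cells take up sugar from the lumen, and I/R interrupts the blood supply.

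Stretches upstream of 4 gene starts are shown because they hold the motifs of the glucose and oxygen sensors named above. Of the 10 genes, 9 had an entry in the RefSeq promoter table (build GRCm38.p6), and the entry for Ndrg1 was missing. In the 250 bases before the start, a pair of CACGNG sites 5 bases apart, the carbohydrate response element, searched for on both strands, occurred in Txnip and in none of the other 8 genes. It occurred in 15 of 32851 promoter windows in all, 0.0457%. The hypoxia core ACGTG, in 16.6% of all windows, occurred in 5 of the 9, namely Arrdc4, Ddit4, Slc2a1, Bnip3 and Hif1a, and the E-box CACGTG, which contains the core on both strands and lies in 6.02% of all windows, occurred in Arrdc4, Bnip3 and Hif1a. Capitals mark the carbohydrate response element in Txnip, the E-box in Arrdc4 and Bnip3, and the hypoxia core in Ddit4, each with 30 bases on either side.
Txnip, chr3:96557842-96557918, plus strand: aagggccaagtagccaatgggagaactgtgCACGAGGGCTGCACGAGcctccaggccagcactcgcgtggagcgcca
Arrdc4, chr7:68749396-68749461, minus strand: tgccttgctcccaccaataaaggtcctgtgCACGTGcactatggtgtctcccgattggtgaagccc
Bnip3, chr7:138909579-138909644, minus strand: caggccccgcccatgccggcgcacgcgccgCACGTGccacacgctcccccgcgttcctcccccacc
Ddit4, chr10:59951923-59951987, minus strand: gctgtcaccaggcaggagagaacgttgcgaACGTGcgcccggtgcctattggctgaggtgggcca
The Txnip element starts 85 bases before the start of the gene, which spans chr3:96557957-96561883 on the plus strand with 8 exons, and the shown stretch lies within Gm15441, annotated on the opposite strand. The Arrdc4 motif starts 193, the Bnip3 motif 108 and the Ddit4 motif 187 bases upstream, and no annotated gene overlaps those stretches. For Adm and Pdk4 the window did not hold ACGTG, and of the 2 starts listed for Vegfa the second did and the first, counted above, did not. A match to these letters is no evidence of binding in these cells.

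The 4 libraries held 22679 barcodes and between 15557181 and 72046346 unique molecular identifiers (UMIs, single captured RNA molecules). Control replicate 2 stood apart, with the fewest UMIs and a median mitochondrial share of 54.0%, against at most 25.8% in the other 3. Of all barcodes, 5615 (24.8%) had at most 10% of their UMIs on mitochondrial genes and were kept: 1446 and 348 from the control mice, 2742 and 1079 from the EC-Foxc-DKO mice. In the blood endothelial (BEC-like) cells the targeted gene Foxc1 was counted 1 and 5 times in controls and 1 and 0 times in EC-Foxc-DKO mice, and Foxc2 had 0 in all 4, so that the depth did not allow a check of the deletion there. Cre had 3 UMIs in each EC-Foxc-DKO mouse and 0 in each control. A barcode was shared by 2 libraries in 51 cases, of which 2 were kept cells in both. Clustering gave 24 cell types named from marker genes and 1 unnamed cluster of 9 cells. The CD8 T-like cluster had Trdc and Tcrg-C1, genes of the gamma delta T cell receptor, among its leading genes. Of its 9 listed markers Cd8b1 alone did not mark it, and Cd8b1 was among the leading genes of the CD4 T-like cluster. Both names are therefore loose. Levels are UMIs per 1000000 UMIs (CPM) after the cells of a type were summed per mouse, and a type entered the order of levels with at least 10 cells in at least 2 mice, which 22 types had. Unless stated otherwise, means are over the mice with at least 10 cells, and each mouse counts once. Depth differed between the mice within each group: the median kept cell had 14740 and 6486 UMIs in controls and 4254.5 and 19871 in EC-Foxc-DKO mice.

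**Figure D1:**
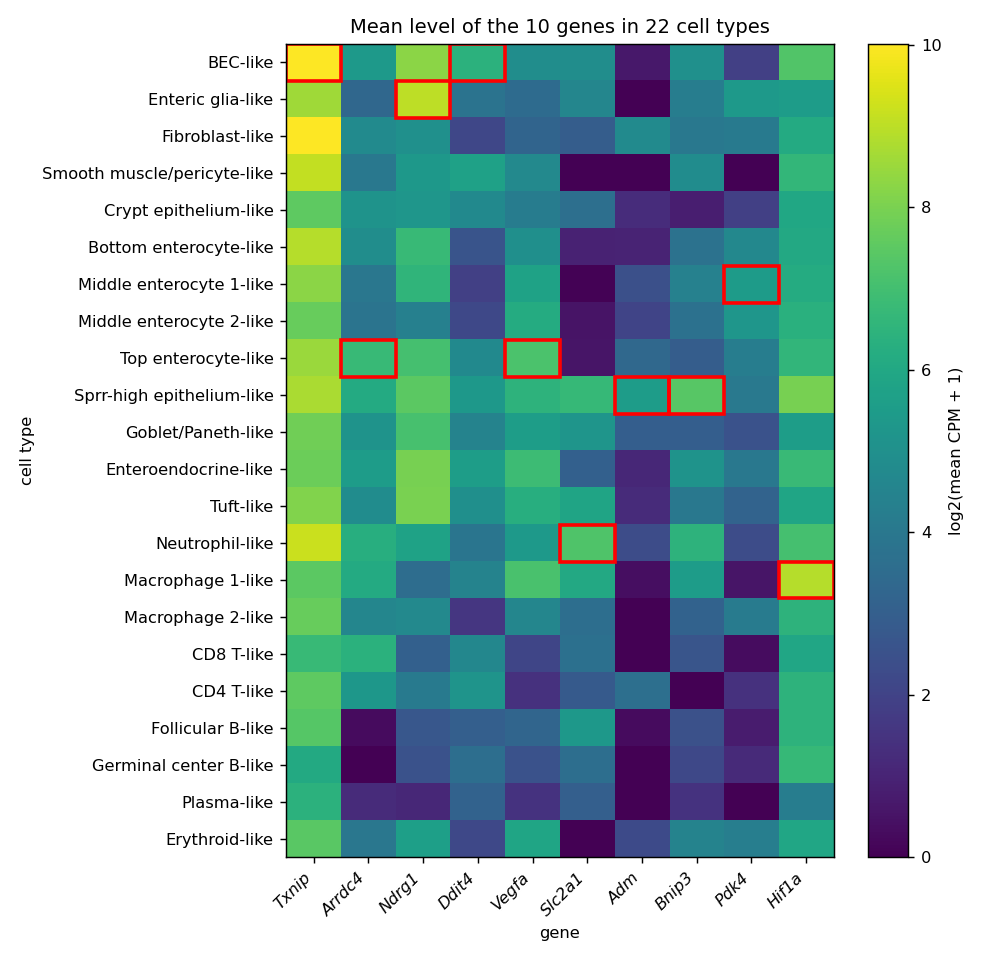
Mean level of each of the 10 genes (columns) in 22 cell types (rows), as log2(mean CPM + 1), with a red frame around the type with the highest mean of each gene. Txnip was above 66 CPM in every type, whereas the highest type of the other genes was spread over endothelium, glia, enterocytes, Sprr-high epithelium, neutrophils and macrophages.

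Txnip was found in every cell type and was highest in the vessel wall and stroma. In BEC-like cells it averaged 1028 ± 501 CPM (SD, n = 4), with 1015 and 1690 CPM in controls and 933 and 476 CPM in EC-Foxc-DKO mice. Fibroblast-like cells followed with 1004 CPM, from control replicate 2 at 1584 CPM and EC-Foxc-DKO replicate 1 at 424 CPM, the only mice with at least 10 such cells. The lymphatic endothelial (LEC-like) cells numbered 18 in all and did not enter the order. Their Txnip level was 1055 and 1195 CPM in controls (5 and 10 cells) and 889 CPM in EC-Foxc-DKO replicate 1 (3 cells). Neutrophil-like cells had 598 CPM and smooth muscle or pericyte-like cells 545 CPM. The lowest means were 84.1 CPM in plasma-like cells and 66.3 CPM in germinal center B-like cells, and the mice of these types lay below every mouse of the BEC-like cells. The order was not sharp at the top, because the range over mice in BEC-like cells overlapped that of 6 other types, and of the 21 neighbouring pairs in the order only 2 did not overlap: top enterocyte over middle enterocyte 1, and follicular B over CD8 T.

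Along the epithelium Txnip did not follow the order of the villus. Bottom enterocyte-like cells, marked by Reg3b and Reg3g, had 470.3 ± 191 CPM (SD, n = 4). Top enterocyte-like cells, marked by Apoa4 and Ada, had 364 CPM, with 383 and 346 CPM in the 2 mice that had at least 10 of them. The pair of middle enterocyte clusters had 304 and 204 CPM, and crypt epithelium-like cells 184 CPM. Arrdc4, the relative of Txnip, peaked elsewhere. It was highest in top enterocyte-like cells, at 103 and 109 CPM, next in CD8 T-like cells at 82.8 CPM, and it averaged 40.5 CPM in BEC-like cells. The ranges over mice of CD8 T-like and Macrophage 1-like cells overlapped that of top enterocyte-like cells, which rests on 2 mice. In B cells Arrdc4 was rarely detected. An Arrdc4 UMI was held by 4 of 1378 follicular B-like cells and by 0 of 105 germinal center B-like cells, which allows up to 2.86% of cells with a UMI at a median depth of 7661 UMIs and sets no limit on cells that express the gene. In these same follicular B-like cells Txnip averaged 165 CPM.

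**Figure D2:**
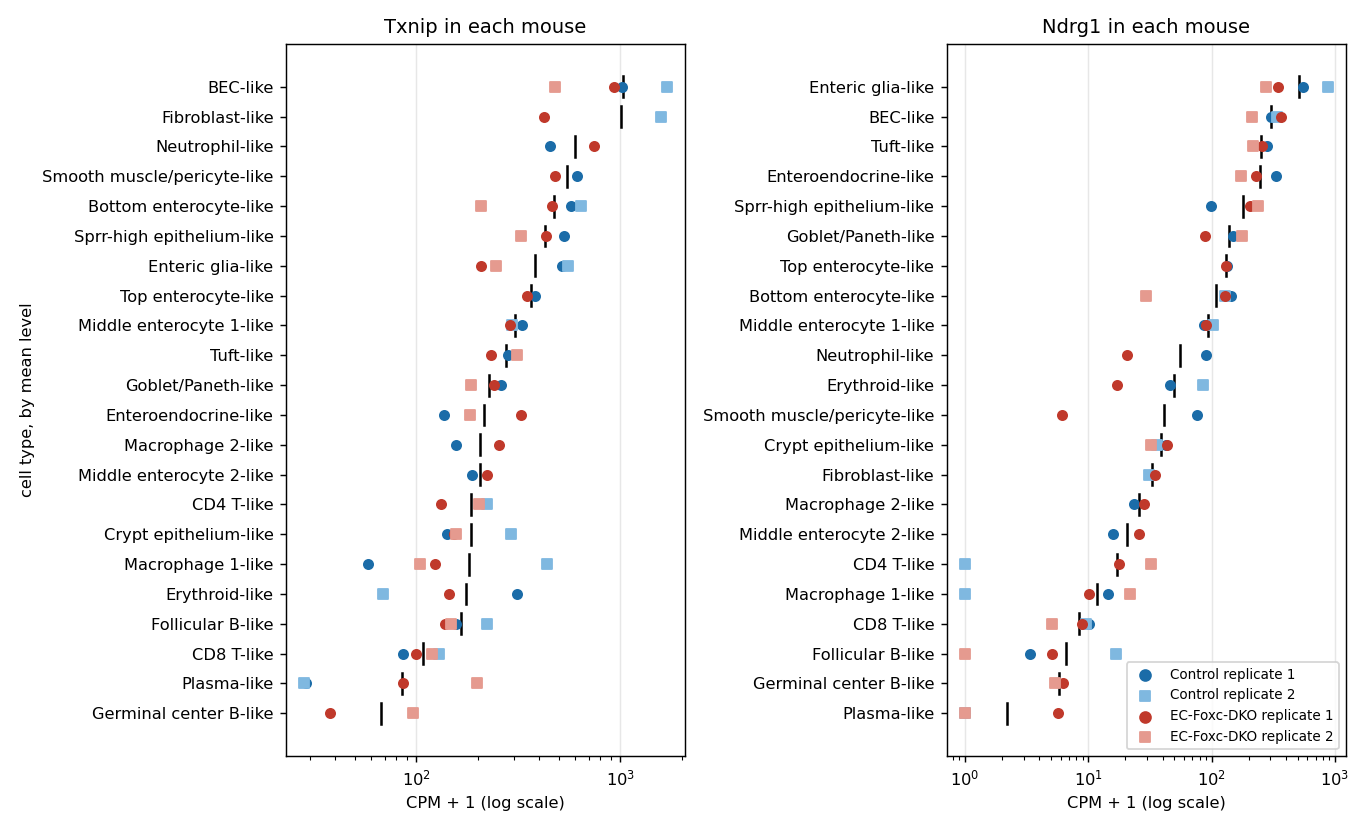
Txnip (left) and Ndrg1 (right) in each mouse with at least 10 cells of a type, as CPM + 1 on a log axis, with cell types ordered by their mean (black tick). Blue marks are control and red marks EC-Foxc-DKO mice. In enteric glia-like cells both EC-Foxc-DKO mice lie left of both control mice for both genes, and in BEC-like cells they do so for Txnip but not for Ndrg1.

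Ndrg1, a cytoplasmic protein that rises under low oxygen and is needed for the upkeep of myelin in peripheral nerve, was highest in the glia of the gut wall. Enteric glia-like cells had 553 and 872 CPM in controls and 344 and 276 CPM in EC-Foxc-DKO mice, a mean of 511 ± 268 CPM (SD, n = 4). This range overlapped those of BEC-like, tuft-like and enteroendocrine-like cells. A UMI of Ndrg1 was found in 78.3% of the 92 glia-like cells, against 1.45% of the follicular B-like cells, at median depths of 4232 and 3246.5 UMIs per cell. After each cell was thinned to 1000 UMIs the shares were 39.6% and 0.451%, with 3 shallower cells of each type left out. BEC-like cells came next, with 302 and 339 CPM in controls and 367 and 212 CPM in EC-Foxc-DKO mice. Their share with a UMI was 64.3% at a median depth of 4254 UMIs, and 27.7% after thinning with 13 cells left out. LEC-like cells had 413 and 669 CPM in control and 195 CPM in the EC-Foxc-DKO mouse that had such cells, from 58 UMIs of Ndrg1 in all. Tuft-like and enteroendocrine-like cells, the sensory cells of the epithelium, had 251 and 244 CPM. Ndrg2, a paralog of Ndrg1, was also highest in the glia-like cells, at 450.1 CPM (359 to 581 CPM over 4 mice).

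The gene that codes for the alpha subunit itself, Hif1a, was highest in Macrophage 1-like cells, a cluster led by the chemokine genes Ccl7 and Ccl2 and by Arg1. The 4 mice differed widely there: 435 and 140 CPM in control, 418 and 926 CPM in EC-Foxc-DKO. Sprr-high epithelium-like cells, enterocytes that express small proline-rich proteins such as Sprr1a, followed at 245 ± 27.0 CPM (SD, n = 3) and lay above the range of the next type, BEC-like cells, at 157 CPM. The wide range of Macrophage 1-like cells overlapped those of Sprr-high epithelium-like, BEC-like and neutrophil-like cells. Vegfa, the growth signal for endothelium, was not highest in the endothelium but in top enterocyte-like cells at 157 and 133 CPM and in Macrophage 1-like cells at 138 ± 55.1 CPM (SD, n = 4). Macrophage 1-like and enteroendocrine-like cells overlapped the range of top enterocyte-like cells. BEC-like cells had 29.0 CPM of Vegfa, and they held the receptors instead. Of 10 receptor genes for VEGF and adrenomedullin, 7 had their highest mean in BEC-like cells among the 22 types in the order. They included Flt1, a VEGF receptor, at 1857 CPM and Ramp2, a partner of the adrenomedullin receptor, at 1090.3 CPM. Flt4 was also among the 7, but LEC-like cells, too few to enter the order, had Flt4 among their own leading genes. Among all 14062 genes that reached 10 CPM in at least 1 type, 7.05% had their highest mean in BEC-like cells. The alpha subunit most typical of endothelium, Epas1 (also called HIF-2 alpha), averaged 1581 CPM in BEC-like cells, with a range of 1369.8 to 1754 CPM over the 4 mice.

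**Figure D3:**
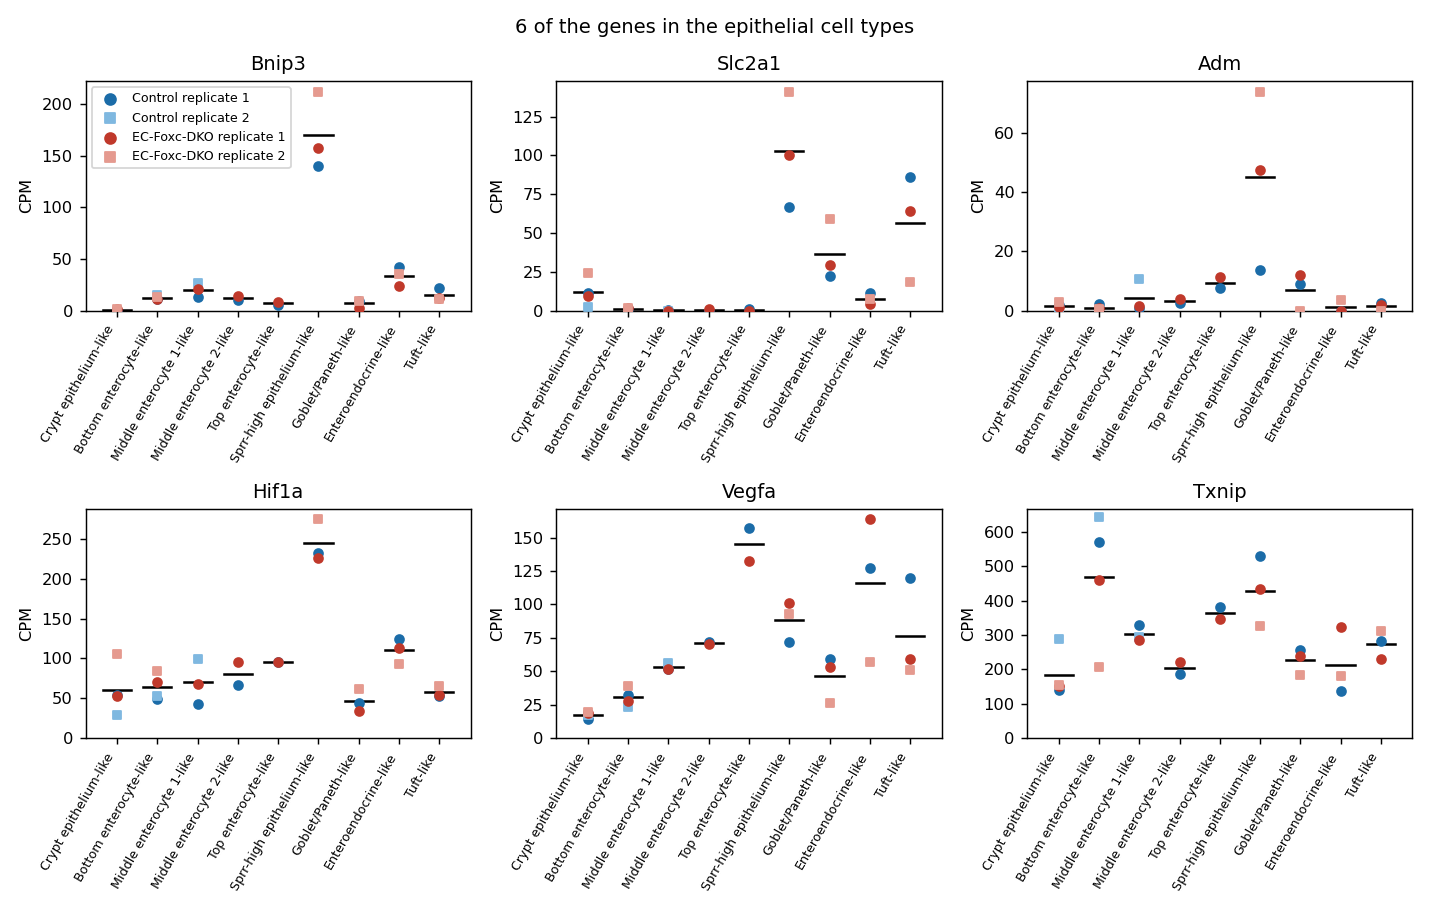
Levels of 6 of the genes in the 9 epithelial cell types, in CPM per mouse (points, mice with at least 10 cells of the type) with the mean as a black line. In Sprr-high epithelium-like cells Bnip3 lies between 141 and 212 CPM, above every other epithelial value, whereas Vegfa and Txnip have their highest epithelial means in top and bottom enterocyte-like cells.

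Several genes known as HIF targets had their highest level in Sprr-high epithelium-like cells. Bnip3, a mitochondrial protein that marks mitochondria for removal, stood there at 141 CPM in control replicate 1 and at 158 and 212 CPM in EC-Foxc-DKO mice, a mean of 170 ± 37.2 CPM (SD, n = 3). No mouse of any of the other 21 types reached that range, and the next type, neutrophil-like cells, averaged 86.9 CPM. Adm, the vasodilator peptide adrenomedullin, also had its highest mean in these cells, 44.9 CPM, but the mice ran from 13.7 CPM (control replicate 1) to 47.5 and 73.7 CPM (EC-Foxc-DKO). Fibroblast-like cells were next at 26.8 CPM, and the ranges of fibroblast-like and CD4 T-like cells overlapped that of the Sprr-high cells. Of the 614 Adm UMIs in kept cells, 435 came from the Sprr-high cells, a raw count that also follows cell number and depth. A UMI of Adm was found in 30.2% of the 281 Sprr-high cells against 0.290% of follicular B-like cells, at median depths of 27057 and 3246.5 UMIs, and in 4.62% against 0.0509% after thinning to 1000 UMIs. Slc2a1, the glucose transporter GLUT1, had 66.9, 100.5 and 141 CPM in the same 3 mice, while its means in the 4 enterocyte types ran from 0.0553 to 0.946 CPM. Its highest mean, 149.7 CPM, was in neutrophil-like cells, from 202 CPM (control replicate 1) and 97.9 CPM (EC-Foxc-DKO replicate 1), and the ranges of these types overlapped.

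Other genes of the pathway were also highest there. Of 14 glycolysis genes, 10 had their highest mean in Sprr-high epithelium-like cells, and of 14 further genes known to rise under low oxygen 7 did, against 2.35% of all 14062 genes. Gapdh averaged 4336 CPM (4149 to 4453 CPM over 3 mice) and Ldha, lactate dehydrogenase, 3310.1 CPM (3159 to 3554 CPM), whereas the next type, bottom enterocyte-like cells, had 1824 and 1571 CPM. Higd1a, a mitochondrial protein of the hypoxia response, averaged 462 CPM and Bnip3l, the relative of Bnip3, 269.7 CPM. Set against the mean of the 8 other epithelial types, a comparison chosen after these values were seen, all 14 glycolysis genes were higher in the Sprr-high cells with a median log2 ratio of 1.77, and 13 of the 14 hypoxia genes were, with a median of 1.60. Over all 14062 genes the median was -0.49 and 21.3% were higher. Of the 10 genes followed here 9 were higher, with Bnip3 (log2 ratio 3.56), Adm (3.31), Slc2a1 (2.77) and Hif1a (1.73) in front, Txnip at 0.61 and Pdk4 (-0.29) alone lower. The other 7 lists had medians from -0.82 to 0.34. The highest were the HIF subunits and oxygen sensors (5 of 8 genes higher, median 0.34) and glucose sensing and thioredoxin (4 of 9, -0.06). Hexose transporters (2 of 5, -0.23) and the VEGF and adrenomedullin receptors (2 of 10, -0.26) came next. The lowest were the pyruvate dehydrogenase list (2 of 6, -0.82), glucocorticoid and FoxO signalling (0 of 10, -0.81) and the paralogs and mTORC1 brakes (1 of 7, -0.67). These are ratios between clusters that were made from the same cells, so they carry no test. The means compared do not all rest on the same mice. EC-Foxc-DKO replicate 2 had fewer than 10 top enterocyte-like, middle enterocyte 1 and middle enterocyte 2 cells and is left out of those means. The share of the cluster that came from each mouse was uneven, with 66 and 2 cells from control and 34 and 179 from EC-Foxc-DKO mice, and the CPM values above leave out the mouse with 2 cells, which are counted in the share of cells with an Adm UMI.

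Pdk4, a kinase that shuts the entry of pyruvate into the mitochondrial cycle and rises in fasting, was the only gene of the 10 with its highest mean in middle enterocyte-like cells. Middle enterocyte 1 had 24.4 and 80.5 CPM in controls against 27.7 CPM in EC-Foxc-DKO replicate 1. The level in control replicate 2 rested on 30 UMIs in 17 cells, and the order moved with the settings, so that middle enterocyte 2 (37.3 CPM) and enteric glia-like cells (41.5 CPM) could not be separated from it. In the same cluster stood the sugar carriers of the lumen: 3 of 5 hexose transporter genes had their highest mean there, against 2.38% of all 14062 genes, among them Slc5a1, the sodium-glucose transporter, at 1508 CPM and Slc2a2 (GLUT2) at 279.9 CPM. Ddit4, which brakes the growth kinase mTORC1 under stress, was highest in BEC-like cells at 101 and 103 CPM in controls against 53.4 and 85.0 CPM in EC-Foxc-DKO mice, and the ranges of 3 other types overlapped that of BEC-like cells.

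The remaining lists were spread over many types. The 8 genes of the HIF subunits and oxygen sensors had their highest means in 7 types, with Egln1, the main oxygen sensor, at 148 CPM in enteric glia-like cells. The 9 genes of glucose sensing and the thioredoxin system were highest in 9 different types: Txn1, the thioredoxin that Txnip binds, in middle enterocyte 1 at 3037 CPM, and Txnrd1, which reduces it, in Sprr-high cells at 346 CPM. Of the 10 genes of glucocorticoid and FoxO signalling, Klf9 was highest in smooth muscle or pericyte-like cells at 745 CPM and Tsc22d3 in follicular B-like cells at 332 CPM. The 6 genes of the pyruvate dehydrogenase list were highest in 6 types, Pdha1 in crypt epithelium-like cells at 184 CPM and Pdk3, a relative of Pdk4, in enteroendocrine-like cells at 101 CPM. Of the 7 paralogs and mTORC1 brakes, Ndrg3 was highest in CD4 T-like cells at 53.8 CPM.

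Genes were next ranked by how closely their mean levels over the 22 types followed each of the 10, with Pearson's r on log2(CPM + 10) among 8450 genes. This r is over cell types from the same 4 libraries and is a description. Closest to Txnip were Lrrc8a (r = 0.82), Tnrc18 (0.81), Pttg1ip (0.80), Bmpr2 (0.79) and Nbl1 (0.79), of which Bmpr2, a receptor for bone morphogenetic proteins, had its highest mean in BEC-like cells at 511 CPM. For Ndrg1 they were Mapk3, Mmp15 and Arhgap5 (0.82 to 0.83). Bnip3 was followed by Ero1l (0.77), an oxidase of the endoplasmic reticulum known to rise in hypoxia, then by Nadk and Ets2. Slc2a1 was followed by Plaur, Hilpda and Il1rn, Hif1a by Atp2b1, Capza2 and Snx3, and Vegfa by Cdkn1a, Hgs and Naip2. For Ddit4 the closest genes were Kctd10, Pfkl and Jag2, and for Pdk4 Ttyh2, Aspa and Cyp2j6. Furin and Fosl2 were among the closest to Arrdc4, and Cd55 and Kdelr3 among the closest to Adm. Between the 10 genes themselves r was highest for Bnip3 with Hif1a (0.64) and for Txnip with Ndrg1 (0.60) and lowest for Ddit4 with Pdk4 (-0.45).

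The design then compared EC-Foxc-DKO with control mice within each cell type, which asks whether loss of Foxc1 and Foxc2 in the endothelium changed these genes after I/R. For the contrasts by which the genes were picked, the values are as follows. In BEC-like cells the 2 EC-Foxc-DKO mice averaged 705 ± 324 CPM of Txnip and the 2 control mice 1352 ± 477 CPM (SD), a log2 ratio of -0.94 with a pooled within-group SD of 0.61 on the log2 scale. The nearest mice, control replicate 1 and EC-Foxc-DKO replicate 1, differed by less than the spread within either group. In enteric glia-like cells Txnip was 517 and 551 CPM in control and 206 and 245 CPM in EC-Foxc-DKO mice, a log2 ratio of -1.24 with an SD of 0.13. Ndrg1 in glia had a log2 ratio of -1.20 with an SD of 0.36, and the groups did not overlap. In BEC-like cells its log2 ratio was -0.15 with an SD of 0.40, and EC-Foxc-DKO replicate 1 had the highest level of the 4 mice, so the groups overlapped, and without EC-Foxc-DKO replicate 2 the ratio turned to 0.19. Without control replicate 2, the library that stood apart, the log2 ratios of Txnip were -0.53 in BEC-like and -1.19 in glia-like cells, and those of Ndrg1 -0.06 and -0.83. Being picked for lower levels, these genes had to lie low in this contrast, and 14.6% of the 3487 genes tested in BEC-like cells and 12.3% of the 1644 in glia-like cells had both EC-Foxc-DKO mice below both controls.

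The summed levels of marker genes listed for other cell types differed between the mice in these clusters. Whether this RNA came from other cells or from the cells of the cluster was not tested. Of 24 marker lists of other types, 6 lay wholly higher and 2 wholly lower by summed level in the EC-Foxc-DKO mice in BEC-like cells, and 2 and 2 in glia-like cells. Of all single genes tested, 15.5% lay wholly higher and 14.6% wholly lower in BEC-like cells, and 14.1% and 12.3% in glia-like cells. Some list sums were near 0: in BEC-like cells the enteric glia list had 0 and 4.46 CPM in control against 6.97 and 25.5 CPM. In BEC-like cells the fibroblast list (5 of 9 genes detected, with Col1a1, Lum, Pdgfra and Sfrp1 at 0) summed to 639 and 1025 CPM in control against 441 and 476 CPM in EC-Foxc-DKO mice. The smooth muscle or pericyte list (7 of 8, Cnn1 at 0) lay the other way, with 13.4 and 160 against 221 and 501 CPM. Mean Txnip was 1004 CPM in fibroblast-like and 545 CPM in smooth muscle or pericyte-like cells. In BEC-like cells the CD8 T list (8 of 9 genes detected, Cd8b1 at 0) summed to 20.2 and 4.46 CPM in control against 427 and 2676 CPM in EC-Foxc-DKO mice, the erythroid list (6 of 7) to 101 and 26.7 against 3629 and 25.5 CPM, and the macrophage list (9 of 9) to 2077 and 17.8 against 25.5 and 42.5 CPM. In glia-like cells the top enterocyte list (7 of 7) summed to 2598 and 451 CPM in control against 9968 and 322 CPM in EC-Foxc-DKO mice, the macrophage list (9 of 9) to 24.1 and 2426 against 23.9 and 92.0 CPM, and the CD8 T list (8 of 9, Cd8b1 at 0) to 36.1 and 30.1 against 832 and 15.3 CPM. Their part in the differences of Txnip and Ndrg1 was not tested. The clusters' own markers were alike, with 22579 and 26181 against 23881 and 24766 CPM for the 11 BEC genes and 16698 and 18042 against 16339 and 20787 CPM for the 11 glial genes.

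**Figure D4:**
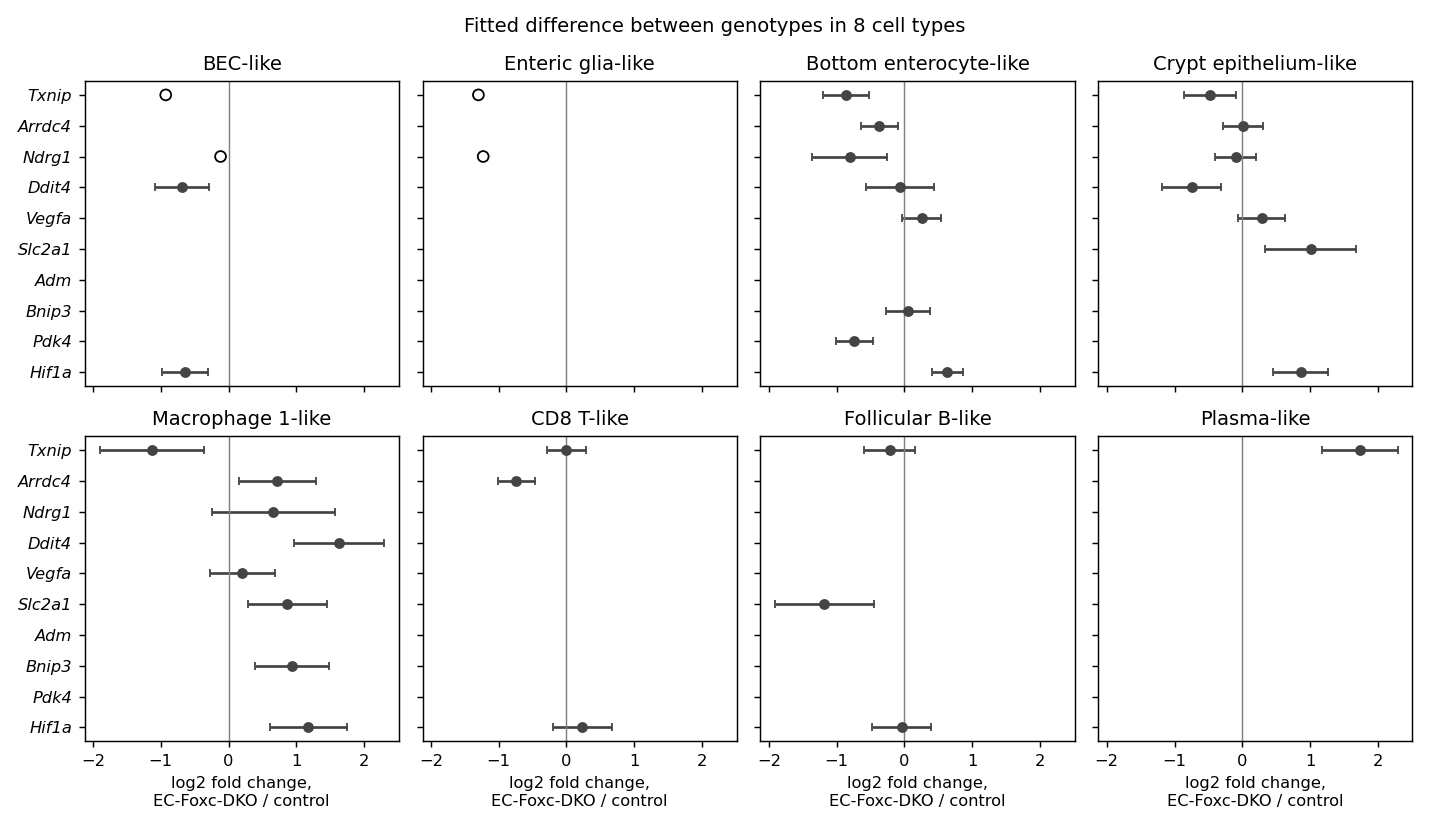
Fitted log2 fold change of EC-Foxc-DKO over control for each gene in the 8 cell types with at least 10 cells in every mouse (points, with the standard error as bars). Open circles are Txnip and Ndrg1 in BEC-like and enteric glia-like cells, which were picked for this contrast and carry no test, and genes with no point had too few UMIs. No filled point passed the test.

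In the 8 cell types that had at least 10 cells in all 4 mice, none of the 10 genes passed the test between genotypes. The test was edgeR's quasi-likelihood test on UMIs summed per mouse, with Benjamini-Hochberg adjustment across every gene tested in the type and a threshold of 0.05. Leaving aside the picked contrasts, 32 combinations of gene and type had enough UMIs to be tested, 0 passed, and 6 had an unadjusted p under 0.05, while DESeq2 on the same sums also called 0, with 2 at an unadjusted p under 0.05. An unadjusted p under 0.05 was reached by 2.78% of all genes tested in BEC-like, 2.31% in glia-like, 2.92% in bottom enterocyte-like, 2.47% in crypt epithelium-like, 2.19% in Macrophage 1-like, 2.18% in CD8 T-like, 1.99% in follicular B-like and 5.99% in plasma-like cells. The background was as low: 0% of the genes tested passed in 7 types, and 0.0894% (1 of 1119) in plasma-like cells. Adm had too few UMIs in all 8 types. With 2 mice a group an exact permutation test cannot go below p = 0.333, and calls of this kind rest on the spread between 2 mice. Of the other genes of the pathways, 82 in 9 lists chosen with earlier results of these data known, none passed in any of the 8 types. Not every gene had enough UMIs in every type, and 272 combinations of gene and type were tested.

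Bottom enterocyte-like cells held 3 of the 6 combinations with an unadjusted p under 0.05, which 2.92% of all 9665 genes tested there had. Txnip had 572 and 642 CPM in controls and 459.6 and 207 CPM in EC-Foxc-DKO mice, a log2 fold change of -0.86 (SE 0.34, edgeR unadjusted p = 0.0364, adjusted p = 0.997). Pdk4 had 34.4 and 26.8 CPM against 22.4 and 15.2 CPM, a log2 fold change of -0.74 (SE 0.27, unadjusted p = 0.0266, adjusted p = 0.997). Hif1a went the other way, with 49.8 and 52.4 CPM against 70.1 and 83.8 CPM and a log2 fold change of 0.63 (SE 0.23, unadjusted p = 0.0263, adjusted p = 0.997). The groups did not overlap for these 3 genes or for Arrdc4, at 31.5 and 35.3 against 31.0 and 19.6 CPM. But 16% of all genes tested there lay wholly lower and 16.5% wholly higher in the EC-Foxc-DKO mice. Ndrg1 was 142, 128 and 129 CPM in 3 mice and 28.5 CPM in EC-Foxc-DKO replicate 2, so that 1 mouse stood apart. The same mouse had the lowest Txnip, Arrdc4 and Pdk4, the highest Hif1a, and 346 of the 683 cells. Its bottom enterocyte list (9 of 9 genes) summed to 114441 CPM and its top enterocyte list (7 of 7) to 30542 CPM, against 62651 to 66567 CPM and 12626 to 20779 CPM in the other 3 mice, and of 24 lists of other types 10 lay wholly higher in the EC-Foxc-DKO mice and 1 lower. The part of these differences in the values of the 10 genes was not tested. Without EC-Foxc-DKO replicate 1, so with replicate 2 as the only mouse of its group, 4 genes passed in these cells: Txnip (log2 fold change -1.47), Pdk4 (-1.01), Hif1a (0.80) and Ndrg1 (-2.18), among 882 genes in all.

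In BEC-like cells the genes that were not picked and had enough UMIs were Ddit4 and Hif1a. Ddit4 had a log2 fold change of -0.69 (SE 0.40, edgeR adjusted p = 0.999). Hif1a had 202 and 178 CPM in controls and 114 and 136 CPM in EC-Foxc-DKO mice, a log2 fold change of -0.64 (SE 0.33, adjusted p = 0.999). Both genes lay wholly lower in the EC-Foxc-DKO mice, as 14.6% of the genes tested there did, and another 15.5% lay wholly higher. In Macrophage 1-like cells Ddit4 had 6.73 and 14.6 CPM in control against 18.4 and 44.4 CPM in EC-Foxc-DKO mice, a log2 fold change of 1.63 (SE 0.67, unadjusted p = 0.0402, adjusted p = 1.00), from 5 to 28 UMIs a mouse. In CD8 T-like cells Arrdc4 had 103 and 105 CPM against 61.9 and 61.1 CPM, with replicates that lay close together, a log2 fold change of -0.74 (SE 0.28, unadjusted p = 0.0226, adjusted p = 0.999). Txnip in the same cells had a log2 fold change of -0.0022 (SE 0.29). Like Ddit4, 17.4% of all genes tested in Macrophage 1-like cells lay wholly higher in the EC-Foxc-DKO mice. Like Arrdc4, 16.1% of those tested in CD8 T-like cells lay wholly lower.

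Of the 8 types, plasma-like cells were the only one in which Txnip was higher in both EC-Foxc-DKO mice, at 27.7 and 27.3 CPM in control against 84.9 and 197 CPM, a log2 fold change of 1.74 (SE 0.56, edgeR unadjusted p = 0.0164, adjusted p = 0.755). These values came from 4, 5, 36 and 28 UMIs in 11, 11, 66 and 15 cells. In plasma-like cells 48.7% of all genes tested lay higher in both EC-Foxc-DKO mice and 3.57% lower, and the plasma list itself summed to 70693 and 60043 CPM in control against 35880 and 56261 CPM in EC-Foxc-DKO mice. The part of that shift in the Txnip value was not tested. The direction did not hold with a mitochondrial limit of 20%, where the log2 fold change was -0.81. Without EC-Foxc-DKO replicate 1 Txnip passed at 2.11, among 48 genes in all.

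Among the remaining combinations, Slc2a1 in follicular B-like cells had a log2 fold change of -1.18 (SE 0.73) and in crypt epithelium-like cells of 1.01 (SE 0.67), both with an adjusted p of 1.00. Vegfa was tested in 3 types and had log2 fold changes of 0.20 to 0.29, and Bnip3 in 2 types, at 0.05 and 0.94. In Macrophage 1-like cells Txnip had a log2 fold change of -1.13 (SE 0.77) with 435 CPM in control replicate 2 and 57.2 to 123 CPM in the other 3 mice. Control replicate 2, the library with the fewest UMIs, also had the highest macrophage list there, 24968 CPM against 12627 to 16802 CPM. Without control replicate 1, so with replicate 2 as the only control, Txnip (-1.94) and Hif1a (2.26) passed in these cells, among 166 genes in all.

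The pathway lists differed in how many of their tested genes lay wholly higher or lower in the EC-Foxc-DKO mice, and the differences of the lists themselves carry no test. In BEC-like cells 2 of 9 glycolysis genes lay lower and 1 higher, and 1 of 8 receptor genes each way (all genes, 14.6% lower and 15.5% higher). In follicular B-like, crypt epithelium-like, glia-like and plasma-like cells some glycolysis genes lay wholly higher and 0 wholly lower. These were 4 of 8 in follicular B-like cells (median log2 fold change 0.26, all genes 10.8% higher and 18.5% lower). Crypt epithelium-like cells had 3 of 11 higher (0.41, all genes 13.4% and 15.6%) and glia-like cells 2 of 6 (0.23, all genes 14.1% and 12.3%). Plasma-like cells had 2 of 6 higher and 0 lower (-0.10), a smaller share than the 48.7% of all genes higher there, with 3.57% lower. The counts were 3 of 10 higher and 2 lower in CD8 T-like cells (all genes, 14.5% and 16.1%) and 2 of 14 and 1 in Macrophage 1-like cells (17.4% and 13.6%). In bottom enterocyte-like cells, where 16.5% of all genes lay higher and 16% lower, glycolysis had 3 of 13 each way. The further hypoxia genes had 5 of 10 higher and 1 lower there (0.32). The glucocorticoid and FoxO genes had 1 of 9 higher and 5 lower (-0.26). In BEC-like cells the further hypoxia genes had 2 of 4 higher and 0 lower, and in follicular B-like cells 0 higher and 2 of 4 lower. Crypt epithelium-like cells had 3 of 10 higher and 1 lower, Macrophage 1-like cells 2 of 10 and 0. CD8 T-like cells had 1 of 5 each way. For the glucocorticoid and FoxO genes, crypt epithelium-like cells had 1 of 8 higher and 2 lower. BEC-like cells had 1 of 3 and 0, and CD8 T-like cells 0 of 6 and 1. For the further hypoxia genes and for the glucocorticoid and FoxO genes, types not named had 0 either way. In plasma-like cells 0 of the glucocorticoid and FoxO genes could be tested. Of the receptor genes, 1 of 3 lay each way in Macrophage 1-like cells (all genes, 17.4% higher and 13.6% lower). Counts of the other lists are not given here. The median log2 fold change over all genes was between -0.01 and 0.04 in every one of the 8 types.

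Single genes of these lists reached an unadjusted p under 0.05 in 11 of 272 combinations of gene and type (4.04%), against 2.57% over all genes, and those named here were chosen after their values were seen. In bottom enterocyte-like cells Hk2, a hexokinase at the entry of glycolysis, had 0.116 and 0 CPM in control against 2.40 and 2.92 CPM in EC-Foxc-DKO mice (edgeR unadjusted p = 0.00156, adjusted p = 0.997). The control levels lie at the counting floor, and the 0 in control replicate 2 came from only 27 cells of this type. In crypt epithelium-like cells Hk2 had 8.65 and 21.4 against 31.8 and 38.2 CPM. Fkbp5, a co-chaperone of the glucocorticoid receptor, had 5.56 and 3.66 against 13.4 and 18.3 CPM in bottom enterocyte-like cells (edgeR unadjusted p = 0.00216, adjusted p = 0.997), the reverse of most of its list. Fam162a had 108 and 101 against 109.9 and 380.0 CPM there, with EC-Foxc-DKO replicate 2 alone far from the others. Hk1 in Macrophage 1-like cells had 32.5 and 29.2 against 14.2 and 14.3 CPM (edgeR unadjusted p = 0.0277, adjusted p = 1.00).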

How the data were processed

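Distal jejunum of 2 control and 2 EC-Foxc-DKO mice was dissociated and sequenced with 10x Genomics 3′ libraries. The authors deposited UMI counts per gene and barcode, not normalized, 1 matrix per mouse, made with Cell Ranger (4.0.0 in the submitters' processing notes, while the paper's methods name another version) on mm10 with Cre added. A joined table of 18407 genes set the denominator of the mitochondrial share only.

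Cells with over 10% of counts on 13 mitochondrial genes were removed, counts were log-normalized to 10000 UMIs, 2923 variable genes (mean 0.01 to 8, dispersion at least 0.5) gave 15 principal components, and Leiden clustering at a resolution of 0.5 gave 23 clusters (Python 3.11.15, scanpy 1.11.5). The 1 cluster whose leading genes held markers of 2 types was clustered again into 3, which made 25. A cluster took the name of the marker list with the largest share of genes at 2 times their level elsewhere and in 10% of cells. At least 3 such markers were needed, and no other list could have more genes among the leading genes of the cluster. Where the leading genes held no marker of the list, at least 75% of the list was needed, and a cluster of low depth stayed unnamed. Such names, rebuilt here, can differ from the study's. No doublets were removed in the main analysis.

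UMIs were summed per mouse and type. Genotypes were compared with edgeR 4.0.16 (filterByExpr, TMM, quasi-likelihood test, R 4.3.3) and with DESeq2 1.42.0 as an alternative. The study tested single cells with MAST, and here the mouse was the unit. The script was tested on simulated data. Intervals and floors (3 counts) cover counting error only. The 10 genes and all lists were chosen with earlier results of these data known. Named genes are the 10, the 2 genes of each list with the highest mean CPM over all types and genes that passed a test, and the 3 (5 for Txnip) genes closest to each of the 10 among those reaching 50 CPM. Hk1, Hk2, Fkbp5 and Fam162a lie outside this rule and were named after their values were seen. Ccl7, Ccl2, Arg1, Slc2a2, Flt4, Reg3b, Reg3g, Apoa4, Ada, Sprr1a, Trdc, Tcrg-C1 and Cd8b1 mark cell types or belong to these lists. A few genes that this rule or a marker list would name are not reported here.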

Additional observations from a re-analysis of the deposited data

Results flagged for a closer look

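For 3 of the genes both EC-Foxc-DKO mice lay above both control mice in 1 cell type and below them in another. How many of all genes had such an opposite pair of types was not counted, so the 3 cannot be read as particular to these genes. Txnip was higher in plasma-like cells (fitted log2 fold change 1.74) and lower in BEC-like (-0.93), bottom enterocyte-like (-0.86), enteric glia-like (-1.30) and follicular B-like cells (-0.22), so that the fold changes lay 2.66, 2.59, 3.03 and 1.95 apart on the log2 scale. These gaps rest on the plasma value, which turned to -0.81 with a mitochondrial limit of 20%, and 48.7% of all genes tested in plasma-like cells lay wholly higher. The share of all genes wholly lower was 14.6% in BEC-like, 16% in bottom enterocyte-like, 12.3% in glia-like, 18.5% in follicular B-like and 15.6% in crypt epithelium-like cells, and the share wholly higher was 17.4% in Macrophage 1-like and 16.5% in bottom enterocyte-like cells. Ddit4 was higher in Macrophage 1-like cells and lower in BEC-like and in crypt epithelium-like cells (-0.75), with gaps of 2.32 and 2.38. Hif1a was higher in bottom enterocyte-like and lower in BEC-like cells, with a gap of 1.27. The difference between the types was not tested for any of these pairs, and none of the fold changes passed the test within its type. The Txnip values in BEC-like and glia-like cells were among those by which the gene was picked.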

How the results depend on the processing

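Among the values that described the picked contrasts, a mitochondrial limit of 20% moved Txnip in glia-like cells from -1.24 to -1.64 (log2 ratio). With a mouse left out in turn, Txnip ranged from -1.51 to -0.53 in BEC-like and from -1.37 to -1.12 in glia-like cells, and Ndrg1 from -0.59 to 0.19 in BEC-like and from -1.49 to -0.83 in glia-like cells. The reversal of Ndrg1 in BEC-like cells came from leaving out EC-Foxc-DKO replicate 2. The number of genes called between genotypes, 0 of the 32 combinations, ranged from 0 to 5 with a mouse left out: 2 without control replicate 1, 5 without EC-Foxc-DKO replicate 1 and 0 without either of the others. These fits have 1 mouse in a group, whose spread is taken to be that of the other group. The count was 0 under every other alternative, namely RLE size factors, DESeq2, no filter on low counts, a limit of 20%, a resolution of 1.0, clustering without the 10 genes and removal of the 292 highest doublet scores. The replicate numbers are shared between groups, but nothing ties the mice of a number together. Deviations of same-numbered mice correlated at -0.33 to 0.01 over genes in the 8 types. With a replicate block 0 of the combinations passed and 11 genes passed over all types, against 1 without it, and with the crossed pairing, added after seeing the data, the counts were 0 and 38. Over all genes and types 15 genes passed with DESeq2 and 481 with no filter. Txnip in plasma-like cells reversed to -0.81 under the limit of 20%. The cell type with the highest mean was the same for 8 to 10 of the 10 genes under every alternative, and Pdk4 moved most often. Txnip was highest in fibroblast-like cells with the limit of 20% and without EC-Foxc-DKO replicate 1. Vegfa moved to Macrophage 1-like cells without control replicate 2 and to enteroendocrine-like cells without EC-Foxc-DKO replicate 2. Slc2a1 moved to Sprr-high epithelium-like cells without control replicate 1. The cause of these changes was not tested.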
